A study of Mus musculus with 2 samples.

Results

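The imprinted genes of the mouse were followed in oocytes of C57BL/6 mice aged 2 weeks, in 1 wild type library and in 1 library of oocytes in which *Kat8* was deleted by Cre recombinase expressed from the *Gdf9* promoter (Kat8 Gdf9 cKO, called cKO here). Of 37 imprinted genes listed by name, 36 had a row in the table of 18467 genes; the long noncoding RNA gene *Mirg* was not analysed here. Of the 36, 24 are known to be expressed from the paternal allele in somatic tissues and 12 from the maternal allele. KAT8, or MOF, acetylates histone H4 at lysine 16, and the *Gdf9* promoter drives Cre in oocytes, beginning in primordial follicles. How many mice were pooled, which part of *Kat8* was removed and whether the wild type mice carried loxP sites or Cre are not given in the sources used here. *Kat8* stood at 166 FPKM (fragments mapped to a gene, scaled to its length and to the size of the library) in the wild type and 0.985 FPKM in the cKO library. With 1 library per genotype there is no replicate check: no test between genotypes was possible, and an effect of genotype and a peculiarity of either library cannot be told apart. Pairs of values are given in the order wild type, cKO.

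Imprinted genes are expressed in somatic cells from only the copy inherited from the mother or only the copy inherited from the father. The choice is set by DNA methylation laid down at imprinting control regions in the germ line, in growing oocytes after birth for the regions methylated by the mother and in male germ cells for those methylated by the father. An oocyte carries only copies that are, or will become, maternal, so the parental class of a gene describes what its copies do in the next generation rather than which allele was read here.

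The imprinted genes had a median of 1.08 FPKM in the wild type and 1.75 FPKM in the cKO library. The medians of all genes were 2.15 and 2.57 FPKM. In the wild type library 19 of the 36 reached 1 FPKM (52.8%, against 58.6% of all genes), and in the cKO library 22 did (61.1%, against 61.1% of all genes). The highest level in the wild type was that of *Ube3a*, a ubiquitin ligase gene expressed from the maternal copy in neurons, at 19.2 FPKM, above 79.3% of all genes. *Cdkn1c*, which encodes the cyclin-dependent kinase inhibitor p57, followed at 12.5 FPKM, above 73.9% of all genes. These were the only 2 members at 10 FPKM or more in that library. In the cKO library 4 members reached 10 FPKM: *Dio3* at 54.0, *Ube3a* at 30.4, *Cdkn1c* at 23.5 and *Igf2r* at 10.04 FPKM. The level of *Igf2r* there was above 69.5% of all genes. The paternally expressed members had a median of 0.646 FPKM in the wild type and 1.35 FPKM in the cKO library, and the maternally expressed members medians of 4.88 and 5.71 FPKM.

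**Figure D1:**
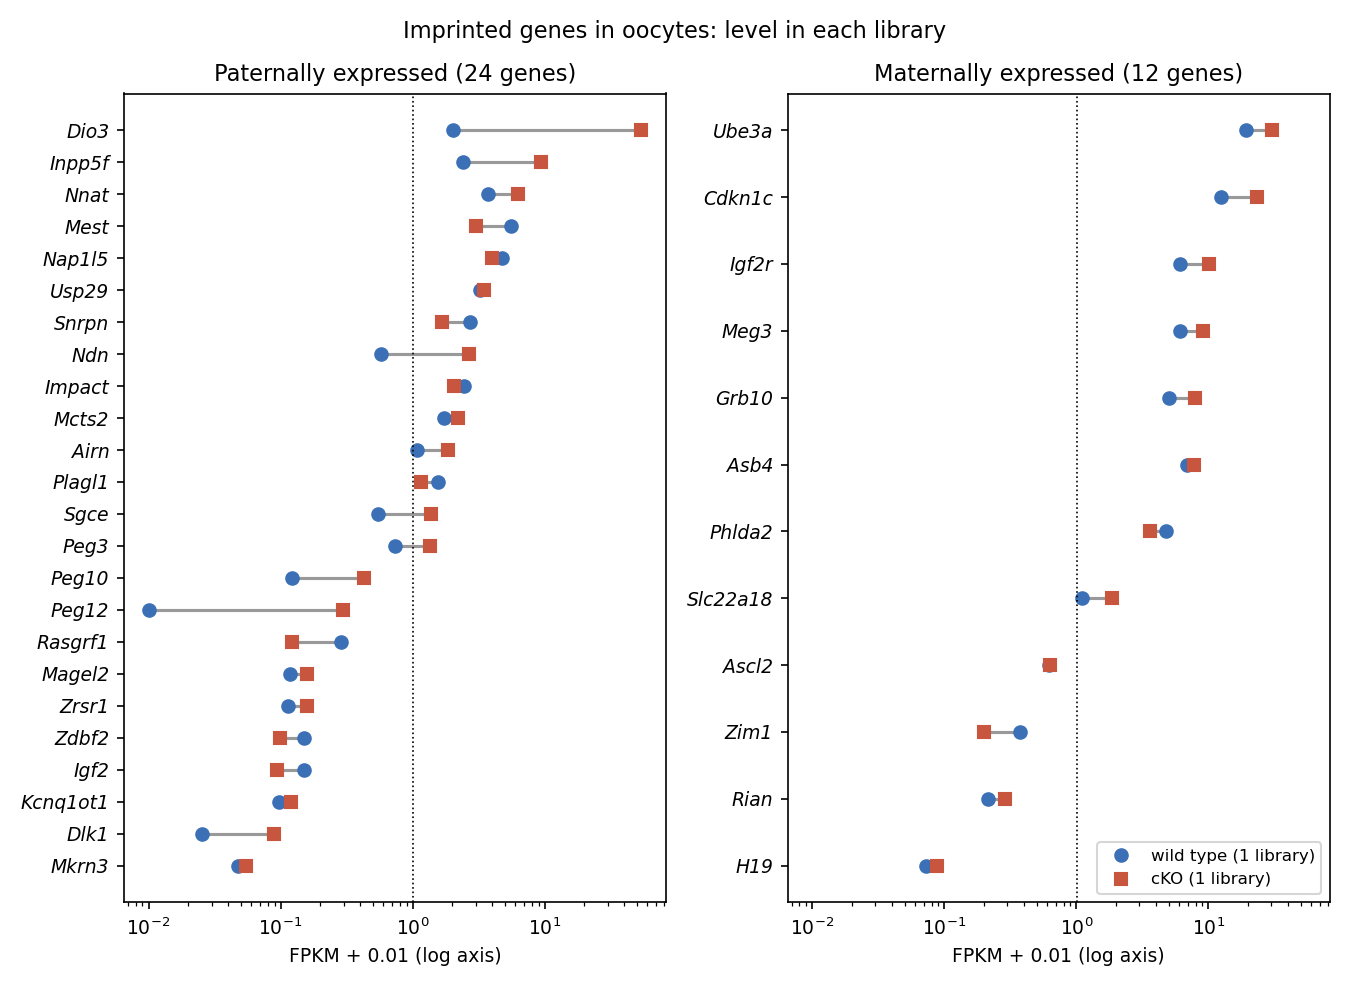
FPKM of the 36 imprinted genes in the wild type (blue circles) and the cKO library (red squares), 1 library each, on a log axis after adding 0.01; the dotted line marks 1 FPKM. *Dio3* has the longest line past that mark (2.02 to 54.0 FPKM), and *Peg12* begins at 0 in the wild type.

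Differences are given as log2 ratios of cKO over wild type on the log2(FPKM + 0.1) scale, and a gene counts as called, higher or lower, if the larger of its levels was at least 1 FPKM and the log2 ratio at least 1 or at most -1. Of the 22 imprinted genes past this floor of 1 FPKM, 4 were called higher in the cKO (18.2%) and 0 lower, where 18.2% of all 11816 genes past that floor were called higher and 12.2% lower. The share called higher was thus that of all genes. The 4 were *Dio3*, *Ndn*, *Inpp5f* and *Sgce*, all of the paternally expressed class. They made up 28.6% of the 14 paternally expressed genes past the floor, against the 18.2% of all genes. The median log2 ratio of the 22 was 0.66 and that of all genes past the floor 0.06. Of the 22, 16 were above 0 and 6 below, where 6281 of the 11816 genes were above 0 and 5535 below. Scaling both libraries to the same total (TPM) shifted the median over all genes to 0.33 and the shares of all genes called higher and lower to 25.6% and 8.38%; 6 members were then called higher and 0 lower, with *Cdkn1c* and *Peg3* added.

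**Figure D2:**
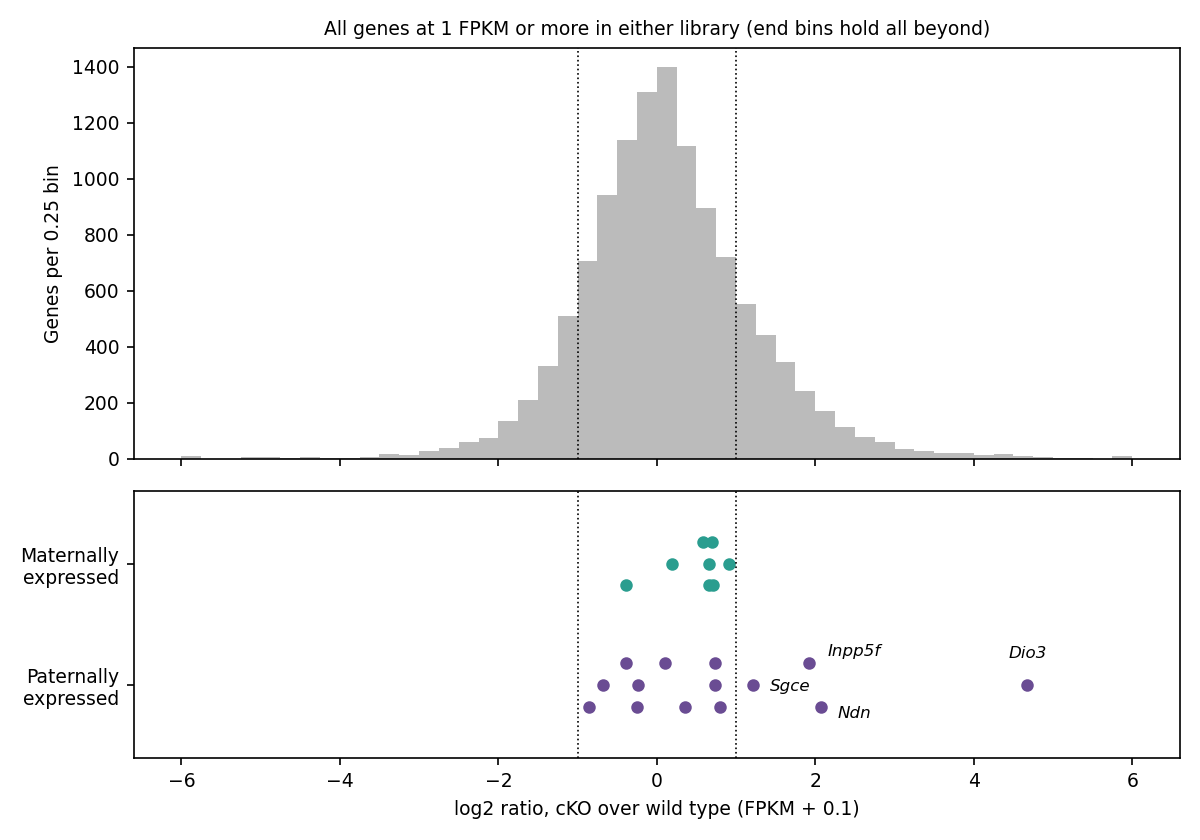
Top, number of genes by log2 ratio of cKO over wild type (FPKM + 0.1) over the 11816 genes whose larger level was at least 1 FPKM, in bins of 0.25; bottom, the 22 imprinted genes past the same floor by class, each a point. Dotted lines mark log2 ratios of -1 and 1; *Dio3* (4.68) lies far to the right and 0 imprinted genes lie left of -1.

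*Dio3*, which encodes the deiodinase that inactivates thyroid hormones, stood at 2.02 FPKM in wild type and 54.0 FPKM in cKO oocytes (log2 ratio 4.68), and only 19 of the 11816 genes past the floor had a larger ratio. The gene has GRCm38 coordinates chromosome 12, 110279068 to 110281097, plus strand, at the distal end of the Dlk1-Dio3 cluster, whose control region is methylated in the male germ line. In the authors' deposited table *Dio3* had an FDR of 2.98e-13 and was the 1 imprinted member with an FDR under 0.05. *Ndn*, *Inpp5f* and *Sgce* were not under it. *Dio3* was also the 1 imprinted member on the list of 500 higher genes, which holds 2.71% of all genes. On the list of 358 lower genes (1.94% of all genes) there were 0 members. Such an FDR compares 2 libraries and not the genotypes over replicates.

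The antisense neighbour of *Dio3* was higher as well. *Dio3os*, a noncoding RNA gene whose start lies 895 bases from that of *Dio3* on the other strand and which shares 0 exon bases with it in GENCODE, stood at 3.82 and 19.5 FPKM, 5.10-fold higher in the cKO. In the authors' deposited table its FDR was 0.00524. *Dio3os* was chosen after its values were seen. The sources used here do not say whether counting used strand, so reads between both genes cannot be assigned by strand.

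*Meg3*, the maternally expressed long noncoding RNA of the cluster, stood at 6.05 and 9.10 FPKM (log2 ratio 0.58), or 0.03 less the trend of all genes on transcript length and GC content. *Rian*, a maternally expressed noncoding RNA that hosts small nucleolar RNAs, stood at 0.205 and 0.280 FPKM, and *Dlk1*, which encodes a transmembrane protein related to Notch ligands, at 0.0153 and 0.0788 FPKM, 5.16-fold higher in the cKO but far under the floor in both libraries. The retrotransposon-derived gene *Rtl1* was at 0.0176 FPKM in wild type and listed at 0 in cKO oocytes. The flanking genes, outside the imprinted genes listed, differed from *Dio3*. The next gene beyond it, *Ppp2r5c*, which encodes a regulatory subunit of protein phosphatase 2A, stood at 54.6 and 52.7 FPKM. *Wdr25*, the gene before *Dlk1*, stood at 7.98 and 3.47 FPKM (log2 ratio -1.18) and was called lower. Of the cluster's genes past the floor, *Dio3* and *Dio3os* were called higher and *Meg3* was not called. *Ppp2r5c* and *Wdr25* were chosen after their values were seen.

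**Figure D3:**
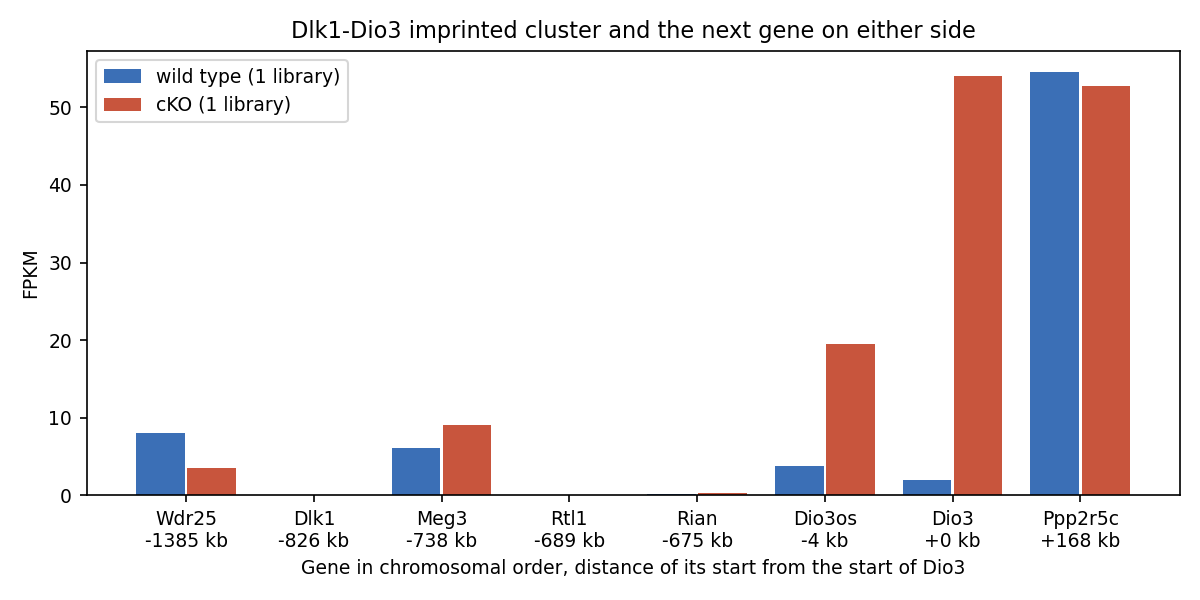
FPKM of the genes of the Dlk1-Dio3 cluster and of the next gene on either side, *Wdr25* and *Ppp2r5c*, in the wild type (blue bars) and cKO library (red bars), 1 library each, in chromosomal order with the distance of each gene's deposited start from that of *Dio3*. *Dio3os* and *Dio3* have taller red bars (19.5 and 54.0 FPKM), *Ppp2r5c* has bars of 54.6 and 52.7 FPKM, *Wdr25* has a shorter red bar (7.98 and 3.47 FPKM), and *Dlk1*, *Rtl1* and *Rian* are under 0.3 FPKM.

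*Ndn*, which encodes necdin, a growth suppressor of the MAGE family, stood at 0.562 FPKM in wild type and 2.68 FPKM in cKO oocytes (log2 ratio 2.07). The gene has GRCm38 coordinates chromosome 7, 62346569 to 62350262, plus strand. It lies in the Snrpn cluster, whose control region is methylated in the oocyte. *Snrpn*, which encodes a splicing protein of the small nuclear ribonucleoproteins, stood at 2.72 and 1.66 FPKM (log2 ratio -0.68), and *Snurf*, made from the same transcript, at 1.54 and 1.02 FPKM. The maternally expressed *Ube3a* stood at 19.2 and 30.4 FPKM (log2 ratio 0.66). The paternally expressed genes nearest to *Ndn* were barely detected: the MAGE gene *Magel2* stood at 0.107 and 0.150 FPKM and the ring finger gene *Mkrn3* at 0.0375 and 0.0448 FPKM. *Peg12* was listed at 0 in the wild type and at 0.288 FPKM in the cKO library, under the floor. With 0 in the wild type its log2 ratio is set by the pseudocount. It was 1.96 with the pseudocount of 0.1, 0.37 with 1 and 4.90 with 0.01. The flanking genes were *Atp10a* on the side of *Ube3a*, at 1.76 and 2.06 FPKM, and *Otud7a*, a deubiquitinase gene beyond *Peg12*, at 0.299 and 2.67 FPKM (log2 ratio 2.79), which was called higher with a larger ratio than that of *Ndn*. *Otud7a* was chosen after its value was seen.

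*Inpp5f*, which encodes an inositol polyphosphate phosphatase, stood at 2.42 and 9.41 FPKM (log2 ratio 1.92). The gene spans GRCm38 chromosome 7, 128611328 to 128696425, plus strand. In the mouse a short transcript that starts inside the gene is the imprinted one; the deposited value covers the gene as a whole, so the forms cannot be told apart. *Mcmbp*, the next gene, stood at 15.4 and 15.4 FPKM, and *Bag3*, the gene before it, which encodes a cochaperone, at 0.711 and 2.47 FPKM. *Mcmbp* and *Bag3* were chosen after their values were seen.

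*Sgce*, which encodes epsilon-sarcoglycan, stood at 0.533 and 1.36 FPKM (log2 ratio 1.21), and 0.62 with a pseudocount of 1. *Peg10*, a retrotransposon-derived gene that starts next to *Sgce* and is read in the other direction, stood at 0.112 and 0.421 FPKM, under the floor in both libraries and 3.74-fold higher in the cKO. The maternally expressed *Asb4* of the same cluster, which encodes a substrate adaptor of ubiquitin ligases, stood at 6.84 and 7.81 FPKM, and *Casd1*, the gene on the other side, at 0.317 and 0.395 FPKM (chosen after its value was seen). *Ppp1r9a*, which lies between *Peg10* and *Asb4*, stood at 1.16 and 1.61 FPKM. Of the paraoxonase genes that follow it, all under the floor, *Pon1* was at 0.269 FPKM in wild type and listed at 0 in cKO oocytes, *Pon3* stood at 0.707 and 0.917 FPKM and *Pon2* at 0.132 and 0.251 FPKM. *Pdk4*, a pyruvate dehydrogenase kinase gene beyond *Asb4* and also under the floor, stood at 0.104 and 0.323 FPKM, 3.11-fold higher in the cKO against 2.56-fold for *Sgce*. The *Pon* genes and *Pdk4* were chosen after their values were seen.

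Of a list of 10 markers of ovarian stroma and theca, 7 were under the floor in both libraries and 3 were past it. All 10 markers of that list were higher in the cKO library, as were 10315 of all 18467 genes. The summed level of the 10 was 1.80 FPKM in the wild type and 10.1 FPKM in the cKO. *Col1a2*, a type I collagen gene, stood at 0.353 and 2.42 FPKM, and *Cyp11a1*, the first enzyme of steroid synthesis, at 0.317 and 2.77 FPKM; *Lhcgr* was listed at 0 in the wild type. The 14 granulosa cell markers summed to 154 and 170 FPKM, and 13 were past the floor. Of the 13, 5 were called higher (38.5%, against 18.2% of all genes) and 0 lower (against 12.2%). Their log2 ratios were above 0 for 8 and below 0 for 5, against 6281 and 5535 of the 11816 genes past the floor. *Inhba* stood at 4.62 and 17.2 FPKM, and *Hsd17b1*, with the lowest ratio, at 6.48 and 3.53 FPKM. The most abundant, *Inha*, stood at 67.3 and 62.7 FPKM. The 5 endothelial markers summed to 12.98 and 12.3 FPKM and the 6 blood markers to 52.3 and 16.6 FPKM, of which *Hba-a1* gave 51.5 and 14.99 FPKM. The 12 oocyte markers were all at 1 FPKM or more in both libraries and summed to 24224 and 19660 FPKM; without *Dppa3* the other 11 summed to 13853 and 15136 FPKM. Of the 12, *Ddx4* was called higher (8.33%, against 18.2% of all genes) and *Dppa3* and *Oosp1* lower (16.7%, against 12.2%). Of the same 12, 8 were above the wild type, as were 6281 of the 11816 genes past the floor. The part of other ovarian cells in the values of the imprinted genes was not tested, and in such libraries fewer cells of a type and less RNA per cell cannot be told apart.

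The promoters of the 3 genes called higher that had one in RefSeq's annotation, and of *Mest*, the member with the lowest ratio past the floor, are shown to let the base composition at their starts be seen. Each window runs from 250 bases before to 50 after the annotated start on GRCm38.p6. Capitals mark TGCCGC or its reverse complement GCGGCA, the hexamer that ZFP57, a protector of imprints, binds when it is methylated, and TATAAA or TTTATA, the TATA box letters; in these windows no match overlaps another.
Dio3 (chr12:110278980-110279279, plus strand): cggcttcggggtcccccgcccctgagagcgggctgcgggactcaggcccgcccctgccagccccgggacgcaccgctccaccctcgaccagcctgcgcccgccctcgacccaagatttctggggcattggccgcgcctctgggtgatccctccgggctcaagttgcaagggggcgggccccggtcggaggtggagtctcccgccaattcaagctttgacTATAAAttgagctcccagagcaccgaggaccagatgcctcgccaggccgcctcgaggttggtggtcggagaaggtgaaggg
Ndn (chr7:62348027-62348326, plus strand): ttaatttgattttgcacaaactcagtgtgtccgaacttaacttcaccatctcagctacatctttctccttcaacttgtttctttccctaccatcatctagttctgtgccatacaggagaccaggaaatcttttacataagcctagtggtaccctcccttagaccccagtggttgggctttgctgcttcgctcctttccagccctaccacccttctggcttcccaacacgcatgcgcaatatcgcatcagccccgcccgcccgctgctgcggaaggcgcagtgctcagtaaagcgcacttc
Inpp5f (chr7:128611115-128611414, plus strand): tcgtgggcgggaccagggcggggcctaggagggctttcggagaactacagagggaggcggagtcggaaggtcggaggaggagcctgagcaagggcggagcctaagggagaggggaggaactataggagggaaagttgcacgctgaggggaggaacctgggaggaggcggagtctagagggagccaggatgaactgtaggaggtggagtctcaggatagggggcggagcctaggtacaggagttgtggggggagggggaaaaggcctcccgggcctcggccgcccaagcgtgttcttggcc
Mest (chr6:30737800-30738099, plus strand): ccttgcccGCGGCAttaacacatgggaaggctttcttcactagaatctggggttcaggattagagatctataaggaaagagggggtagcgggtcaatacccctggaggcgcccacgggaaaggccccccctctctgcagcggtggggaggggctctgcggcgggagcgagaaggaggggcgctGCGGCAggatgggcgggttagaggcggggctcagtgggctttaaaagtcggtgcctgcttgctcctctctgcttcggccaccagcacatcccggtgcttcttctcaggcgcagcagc
The *Dio3* window held 25 CpG, more than 81.6% of the 32851 promoters of the reference table, and a TATAAA that begins 31 bases before the annotated start; 13.6% of all promoters held TATAAA on either strand. The windows of *Inpp5f* and *Ndn* held 15 and 11 CpG and neither motif. The *Inpp5f* window lies at the start of the whole gene and not at that of the short imprinted transcript. The *Mest* window, 1 of 3 for this gene, held 17 CpG and 2 hexamers. Over the 31 members with a promoter there, 12 of 43 windows held the hexamer (27.9%), against 11.6% of all promoters and 24.1% of those with at least 13 CpG, the median of the members' windows. The 27.9% includes member windows with fewer CpG. Among the 12 are 2 *Mest* windows that overlap almost wholly and hold the same hexamers. These matches describe the letters only and say nothing of methylation or binding in these oocytes.

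The remaining paternally expressed genes past the floor lay within 2-fold of the wild type. *Nnat*, which encodes neuronatin, a small membrane protein, stood at 3.72 and 6.26 FPKM (log2 ratio 0.74). *Peg3*, a zinc finger gene, stood at 0.731 and 1.34 FPKM (log2 ratio 0.79), and *Usp29*, a deubiquitinase gene that shares its start region, at 3.23 and 3.47 FPKM. *Airn*, the noncoding RNA that silences *Igf2r* on the paternal chromosome, stood at 1.07 and 1.84 FPKM, and the translation factor gene *Mcts2* at 1.71 and 2.21 FPKM. These lay above the wild type, *Usp29* not so less the trend, and the following lay below it. *Mest*, which encodes a hydrolase-like protein, stood at 5.52 and 3.02 FPKM, the lowest log2 ratio of the 22 at -0.85. *Plagl1* (Zac1), a zinc finger transcription factor gene, stood at 1.54 and 1.15 FPKM. *Nap1l5*, of the nucleosome assembly protein family, stood at 4.71 and 3.98 FPKM, a direction that turned under TPM and less the trend, and *Impact*, a regulator of the kinase GCN2, at 2.43 and 2.04 FPKM. Over all 14 paternally expressed genes past the floor, 9 log2 ratios were above 0 and 5 below. Of all genes past it, 6281 were above 0 and 5535 below. The 14 log2 ratios ran from -0.85 to 4.68 with a median of 0.54.

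Of the 8 maternally expressed genes past the floor, 0 were called in either direction, where 30.4% of all genes past it were. The log2 ratios of the 8 ran from -0.38 to 0.91. *Cdkn1c* stood at 12.5 and 23.5 FPKM (log2 ratio 0.91), the nearest to the 2-fold rule. *Igf2r*, the receptor that clears IGF2, stood at 6.13 and 10.04 FPKM. *Grb10*, which encodes an adaptor that damps insulin signalling, stood at 5.01 and 7.95 FPKM. The transporter gene *Slc22a18* stood at 1.09 and 1.85 FPKM, whereas *Phlda2*, a growth-limiting gene of the placenta, stood at 4.76 and 3.62 FPKM, the 1 gene of the 8 below the wild type. With *Meg3* and *Ube3a*, 6 of the 8 lay between log2 ratios of 0.58 and 0.91. The median of the 8 was 0.66, against 0.06 for all genes past the floor. Less the trend of all genes on transcript length and GC content the median was 0.33, where that of all genes was -0.08.

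As 0 members were called lower, opposite calls within a cluster could not occur. For clusters with both classes the values alone are therefore given. In the Igf2r-Airn pair the log2 ratios were 0.70 for *Igf2r* and 0.73 for *Airn*. In the Kcnq1ot1 cluster the noncoding RNA *Kcnq1ot1*, which silences its neighbours on the paternal chromosome, stood at 0.0865 and 0.111 FPKM, while *Cdkn1c* and *Slc22a18* were above and *Phlda2* below the wild type. *Ascl2*, a transcription factor gene of the placenta in that cluster, stood at 0.613 and 0.619 FPKM. In the H19-Igf2 pair both genes were barely detected: *H19*, a noncoding RNA, stood at 0.0627 and 0.0781 FPKM and the growth factor gene *Igf2* at 0.140 and 0.0835 FPKM. The ratio of *H19*, 1.24, is the one that equal numbers of fragments give in these libraries, where a fragment of the cKO library counts for 1.24 times the FPKM of a wild type one.

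In all, 14 imprinted genes were under 1 FPKM in both libraries, 10 paternally and 4 maternally expressed, with a highest value of 0.619 FPKM. Of these, 10 were higher and 4 lower in the cKO library as FPKM, where 10315 of all 18467 genes were higher. All 14 were left without a call. Besides those given above, *Rasgrf1*, which encodes a guanine nucleotide exchange factor and whose control region is methylated in the male germ line, stood at 0.277 and 0.113 FPKM. The zinc finger gene *Zim1* stood at 0.362 and 0.188 FPKM, *Zdbf2* at 0.141 and 0.0892 FPKM and the splicing factor gene *Zrsr1* at 0.104 and 0.149 FPKM. Differences at such levels rest on few fragments, whose number is unknown.

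Of the 36 genes, 12 overlap another gene of the table or share its deposited locus, and for these the reads may have been split between the genes. *Nap1l5* lies inside an intron of *Herc3* on the other strand, and the genes differed: *Nap1l5* stood at 4.71 and 3.98 FPKM and *Herc3* at 3.47 and 9.16 FPKM (log2 ratio 1.37). *Nnat* lies inside *Blcap*, which stood at 79.0 and 88.9 FPKM, and *Mcts2* inside *H13*, at 33.7 and 40.1 FPKM. *Zrsr1* lies inside *Commd1*, which stood at 323 and 289.8 FPKM, and shares 412 exon bases with it. *Mest* overlaps *Copg2*, which stood at 23.0 and 22.7 FPKM, over 912 exon bases. The 4 genes called higher were not among the 12. Without these, 12 members were past the floor, with 4 called higher (33.3%, against 18.2% of all genes) and 0 lower (against 12.2%). Overlapping genes were left out of the members only and not of all genes, so these shares are not of like sets. This check was added after the data were seen. The overlapping genes here were chosen after their values were seen.

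**Figure D4:**
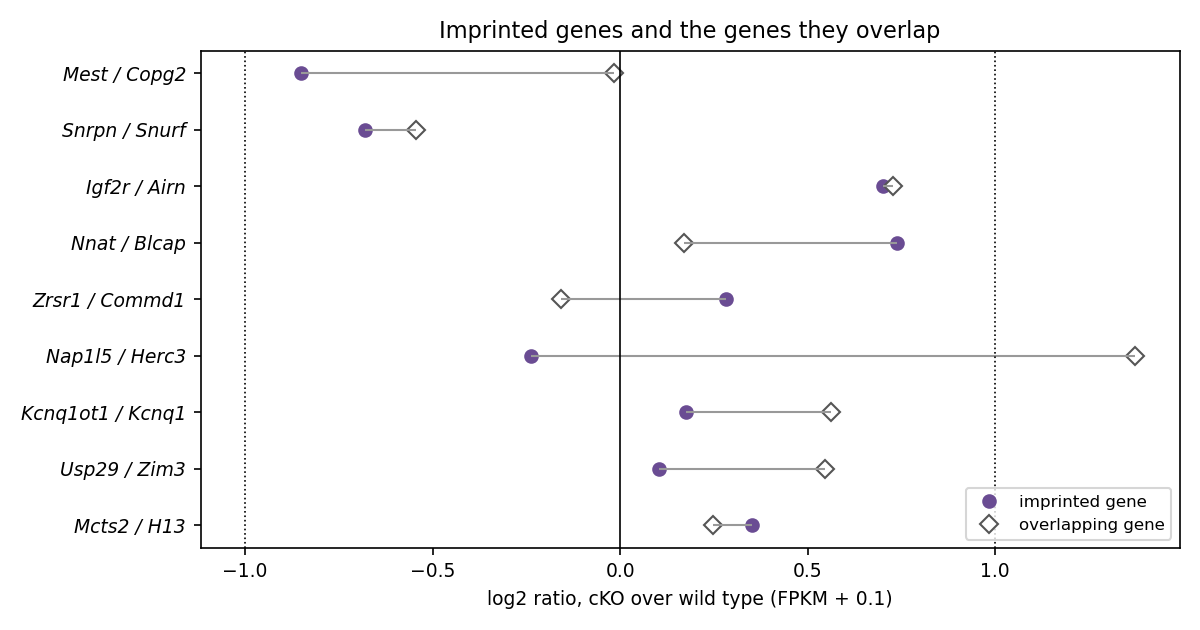
Log2 ratio of cKO over wild type (FPKM + 0.1) of imprinted genes (filled circles) and of the gene each overlaps in GENCODE (open diamonds), 1 library per genotype; dotted lines mark -1 and 1. The pairs *Igf2r* and *Airn* (0.70 and 0.73) and *Snrpn* and *Snurf* (-0.68 and -0.54) lie close together, and *Nap1l5* and *Herc3* (-0.24 and 1.37) lie farthest apart.

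A further list of 35 imprinted genes, of which 30 were in the table and 17 past the floor, had 4 called higher (23.5%, against 18.2% of all genes past the floor) and 2 lower (11.8%, against 12.2%), with a median log2 ratio of 0.28. *Smoc1*, which encodes a calcium-binding matrix protein, stood at 1.27 and 13.8 FPKM (log2 ratio 3.35), and the cation transporter gene *Slc22a3* at 1.55 and 4.55 FPKM. Decorin (*Dcn*), a matrix proteoglycan also made by stroma, stood at 0.689 and 2.10 FPKM. *Trappc9*, which encodes a vesicle tethering protein, stood at 523 and 197 FPKM, 2.66-fold lower. *Gpr1*, the gene before *Zdbf2* and chosen after its value was seen, stood at 100.2 and 42.0 FPKM, 2.39-fold lower, and just short of the 2-fold rule less the trend.

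Of 24 genes whose products set, read or protect imprints, 20 were past the floor, with 3 called higher (15%, against 18.2% of all genes), 1 lower (5%, against 12.2%) and a median log2 ratio of 0.17. The chromatin regulator gene *Ehmt2* (G9a) stood at 1.51 and 5.26 FPKM (log2 ratio 1.74, and 0.80 less the trend on length and GC content, which ends its call). The 2 others called higher were *Yy1*, a zinc finger factor, at 7.05 and 22.5 FPKM and the methylcytosine dioxygenase gene *Tet2* at 0.263 and 1.27 FPKM. *Dppa3*, which limits DNA methylation in oocytes and protects it in the zygote, stood at 10371 and 4524 FPKM, 2.29-fold lower, and -0.55 as a log2 ratio less the trend on length and GC content. The DNA methyltransferase gene *Dnmt3a* stood at 19.1 and 14.8 FPKM, its cofactor *Dnmt3l* at 155 and 179 FPKM, and *Zfp57* at 1281 and 1306 FPKM; these 3 were chosen after their values were seen.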

How the data were processed

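RNA of mouse oocytes was sequenced in 1 wild type and 1 Kat8 Gdf9 cKO library, with an RNA library kit and total RNA per the labels' protocols. The aligner Bowtie 0.12.2 and the build mm10 are named in the submitters' processing notes; the counter, annotation, strand setting and test are not given in the sources used here. The authors deposited FPKM per gene and library, with 0 written as 1e-05 and read here as 0, in 3 tables. Per the file headers, these also give the linear fold change (a ratio of the FPKM columns), a p-value and an FDR. KO in a header was read as the cKO and NC, by elimination, as the wild type. The headers of the locus and description columns are exchanged. A single line of the main table was empty.

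Counts were not used here, so depth is unknown and no interval is given. The peak of cKO over wild type ratios of 3503 genes under 0.6 FPKM gave the relative worth of 1 fragment, 1.24; *H19* lay within 2% of it. Log2 ratios used a pseudocount of 0.1 and a floor of 1 FPKM in the larger library. Log2 ratios of low genes understate their change. GENCODE M21, on GRCm38 like mm10, gave positions, transcript lengths and GC content for 17349 genes and 33 members. Promoters are from RefSeq (GRCm38.p6), matched by gene ID for 31 members. The trend was a quadratic fit on log2 length and GC content, tested on simulated data. Tools were Python 3.11.15, pandas 2.3.3, numpy 2.4.6 and matplotlib 3.10.9. The members and lists were chosen with earlier results of these data known. Every member is accounted for; up to 4 genes with the largest absolute log2 ratio past the floor were named from each other list, and the most abundant marker of a cell type; not every gene so eligible is printed. Alternatives were other pseudocounts, floors and scalings, the trend, and members without overlap.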

Additional observations from a re-analysis of the deposited data

How the results depend on the processing

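The counts of imprinted genes called lower were 0 under all 9 alternatives run. Of all genes, between 8.38% (TPM) and 12.7% (median-of-ratios scaling) were called lower under these. The count called higher was 4 as reported (18.2%, against 18.2% of all genes) and 3 with a pseudocount of 1 (13.6%, against 12.7%). It was 5 with library totals taken without the 50 most abundant genes (22.7%, against 23.5%). With TPM it was 6 (26.1%, against 25.6%), and with no floor 6 (16.7%, against 18.4%). With a floor of 5 FPKM it was 2 of the 10 members left (20%, against 15.5%). *Ndn* and *Sgce* lay under that floor in both libraries. *Dio3* and *Inpp5f* were called higher in every one of these.

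The median log2 ratio of the paternally expressed genes, 0.54 as reported, was 0.34 with a pseudocount of 1, 0.56 with 0.01, 0.52 with median-of-ratios scaling, 0.79 with TPM, 0.74 without the 50 most abundant genes in the totals, 1.33 at a floor of 5 FPKM, 0.28 without any floor, 0.43 less the trend on length and GC content, and 1.56 without members that overlap another gene. That of the maternally expressed genes, 0.66 as reported, was 0.55, 0.66, 0.63, 0.90 and 0.86 under the first 5 of these, 0.45 with no floor, 0.33 less the trend and 0.62 without overlapping members. Both medians stayed above that of all genes under each scaling, which was 0.33 with TPM and 0.28 without the 50 most abundant genes. The paternal medians of 1.33 and 1.56 rest on few genes. At the floor of 5 FPKM only *Dio3*, *Inpp5f*, *Nnat* and *Mest* were left in that class. Without overlapping members the genes left past the floor were the 4 called higher, *Plagl1* and *Impact*. Of the 22 genes past the floor, 2 changed sign under the pseudocounts, scalings and trend: *Nap1l5* (0.07 less the trend and 0.0021 with TPM) and *Usp29* (-0.09 less the trend). The cause of these moves was not tested. No paired analysis was possible because each genotype has 1 library.

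Unknown depth and the lack of replicates limit every value, most of all those of the 14 genes under 1 FPKM.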
